A study of Rattus norvegicus with 8 samples.

Results

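ADAMTS proteases are secreted metalloproteinases with thrombospondin repeats that cut the proteins of the extracellular matrix. The 10 genes described here are Adamts1, Adamts2, Adamts4, Adamts5, Adamts6, Adamts7, Adamts9, Adamts10, Adamts12 and Adamts14. They were taken by gene symbol from a table of 31699 rows that holds 19 Adamts genes in all. They were divided into 4 aggrecanases (Adamts1, Adamts4, Adamts5 and Adamts9), 2 procollagen processors (Adamts2 and Adamts14) and 4 other members. RNA-seq was performed on annulus fibrosus cells (AFCs) of Sprague Dawley rats, the cells of the outer ring of the intervertebral disc. All cells were treated with cyclic mechanical stretch (CMS), so no sample shows the proteases without stretch. The study compared 4 samples that received the empty shRNA lentivirus pLVX-shRNA-Puro (labelled Lv-Ctrl) with 4 that received pLVX-shRNA-Puro-Piezo1, which carries an shRNA against the mechanosensitive ion channel Piezo1 (labelled Lv-Piezo1), to ask which genes follow Piezo1 during stretch-induced apoptosis. Each isolation of cells pooled the annulus tissue of several rats, and the age of these animals is not in the labels.

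ADAMTS enzymes are made as inactive precursors and lose their propeptide through furin-like proprotein convertases. Aggrecanases cut aggrecan and versican, the large hyaluronan-binding proteoglycans that hold water in the disc, and loss of aggrecan is a known feature of disc degeneration. ADAMTS2 and ADAMTS14 remove the amino-terminal propeptide of fibrillar procollagens, a step of collagen fibril formation in the annulus. ADAMTS7 and ADAMTS12 cut cartilage oligomeric matrix protein, and ADAMTS6 and ADAMTS10 are tied to fibrillin microfibrils. TIMP3 inhibits the aggrecanases, and endocytic receptors such as LRP1 clear them from the matrix.

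The members moved in both directions. Transcripts of Adamts10, Adamts4, Adamts14 and Adamts6 rose in the samples labelled Lv-Piezo1, those of Adamts1 and Adamts7 fell, and those of Adamts5, Adamts2 and Adamts12 did not pass the test. Levels are given as TPM (the usual transcript abundance scaled to a common total per sample), which corrects for transcript length. Changes are given on the log2(TPM + 1) scale, which understates the change of low genes, and were tested with limma over all 13103 genes that reached a mean of 1 TPM. Rose and fell mean a Benjamini-Hochberg adjusted p below 0.05. Of the 9 members tested, 4 rose and 2 fell, while 41.9% of all tested genes rose and 16.3% fell. With the further condition of a 2-fold change, Adamts10 was the member that passed, with 4.91% of tested genes at least doubled and 2.76% at least halved. The groups did not overlap in 6 of the 9 tested members, against 54.2% of all tested genes.

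**Figure D1:**
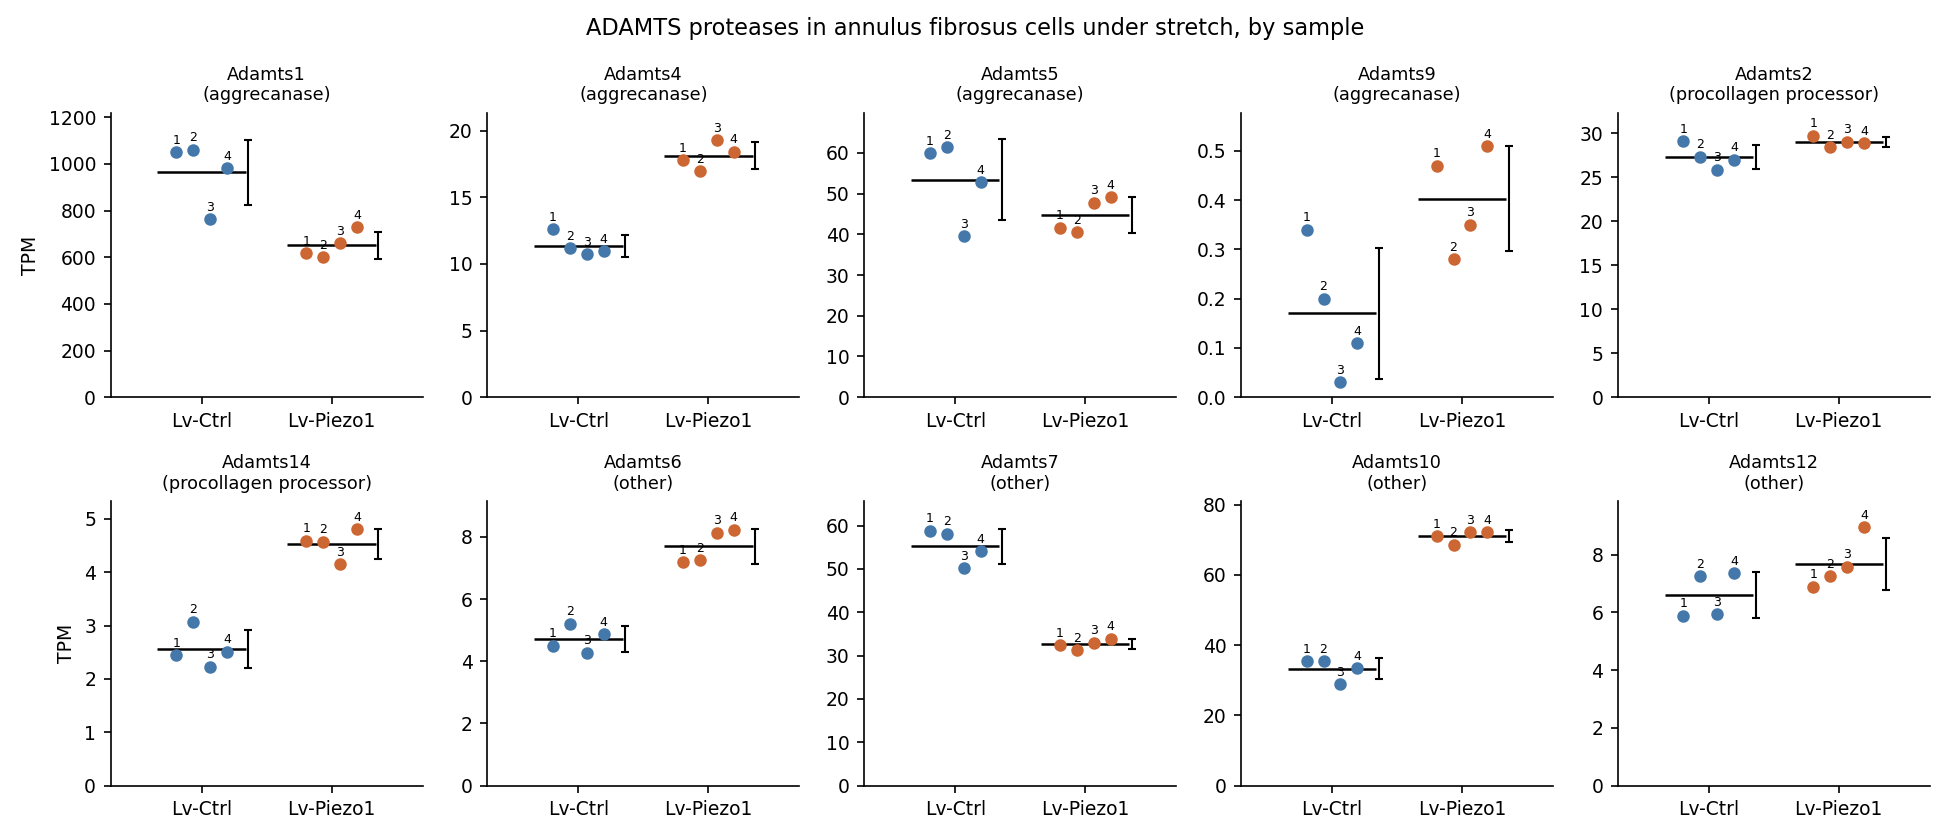
TPM of the 10 ADAMTS members in each sample, one panel per gene with its own linear axis from 0. Digits give the replicate number, lines the group means and bars the SD of 4 samples. Adamts10 lay at 29.0 to 35.5 TPM in Lv-Ctrl and 68.7 to 72.2 TPM in Lv-Piezo1, whereas the groups overlapped for Adamts5, Adamts9, Adamts2 and Adamts12.

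Some facts of the whole series touch these values. The Piezo1 transcript itself was higher in the samples labelled Lv-Piezo1, at 39.4 ± 1.75 TPM against 30.1 ± 2.67 TPM (SD, n = 4), with a log2 difference of 0.38 (SE 0.06, limma, Benjamini-Hochberg adjusted p = 8.6e-04). The transcript therefore goes against the knockdown label, and the groups are named below by their labels alone. The median change of all tested genes was 0.14, and scaling each sample by the median ratio of its genes moved it to -0.01, which lowers the values of Lv-Piezo1 relative to Lv-Ctrl. With median-ratio scaling 27.9% of tested genes rose and 27.9% fell, and with quantile normalization 28.7% rose and 27.3% fell. Under either scaling 4 members rose and 3 fell, the added one being Adamts5. Among genes past the 2-fold condition, 64.1% were higher with the deposited TPM, 52.1% with median-ratio scaling and 48.8% with quantile normalization.

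The levels of marker genes also differed between the groups. The counts per list stand beside 41.9% of all tested genes that rose and 16.3% that fell. Summed markers of smooth muscle cells and pericytes lay at 828 to 863 TPM in Lv-Ctrl and 4604 to 4773 TPM in Lv-Piezo1. Most of the Lv-Piezo1 sum was Tagln (2730 TPM) and Acta2 (1344 TPM). Of the 10 tested of 12 listed, 8 rose and 2 fell. The 2 that fell were Kcnj8, from 326 to 39.1 TPM (log2 change -3.03), and Abcc9, from 73.7 to 12.3 TPM (-2.49). Rgs5 of the same list did not exceed 0.35 TPM in any sample. The annulus and fibroblast markers summed to 7244 to 8136 TPM and 10437 to 11141 TPM, most of it Col1a1 and Col1a2. Of the 8 tested, 3 rose, namely Col1a1, Col1a2 and Scx. The 4 that fell were Dcn (log2 change -1.49), Pdgfra (-1.36), Fmod (-0.99) and Mkx (-0.76). The tendon and annulus marker Tnmd did not exceed 0.08 TPM in any sample. Of the nucleus pulposus markers, Tbxt was listed at 0 in all samples, while the summed list lay at 5.78 to 6.68 TPM and 22.1 to 26.7 TPM, most of it Cd24. The chondrocyte list summed to 32.0 to 38.9 TPM and 49.9 to 53.3 TPM, most of it Acan. In that list Col2a1 did not exceed 0.59 TPM in any sample, and Sox9 had a log2 difference of -0.01. Macrophage and leukocyte markers summed to 21.3 to 23.3 TPM and 37.1 to 41.9 TPM with Adgre1 and Cd163 at 0. Most of both sums was Cd14 (20.9 and 25.8 TPM) and Cd68 (0.955 and 12.3 TPM). Ptprc did not exceed 0.01 TPM and Csf1r did not exceed 0.20 TPM in any sample. Endothelial markers summed to at most 0.62 TPM in every sample. The part of these differences in the ADAMTS values was not tested, and in bulk RNA fewer cells of a type and less RNA per cell cannot be told apart.

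Adamts1 (ENSRNOG00000001607), an aggrecanase that also cuts versican, was by far the most abundant member, at rank 199 of the 31699 rows by mean TPM. It measured 1052, 1061, 763 and 981 TPM in Lv-Ctrl replicates 1 to 4. In Lv-Piezo1 replicates 1 to 4 it measured 618, 599, 661 and 728 TPM. The groups did not overlap, although the lowest Lv-Ctrl sample, replicate 3, came close to the highest Lv-Piezo1 sample, replicate 4. The mean fell from 964 ± 139 TPM to 651 ± 57.1 TPM (SD, n = 4), a ratio of 0.676. The log2 change was -0.56 (SE 0.11, 95% interval -0.80 to -0.32, limma, Benjamini-Hochberg adjusted p = 0.0017).

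Adamts4 (ENSRNOG00000003538), one of the principal aggrecanases, changed the other way at a far lower level. Its TPM was 12.6, 11.2, 10.7 and 11.0 in Lv-Ctrl and 17.8, 17.0, 19.3 and 18.4 in Lv-Piezo1, again in the order of the replicates. All Lv-Piezo1 values stood above all Lv-Ctrl values. The mean rose from 11.4 ± 0.841 TPM to 18.1 ± 0.996 TPM (SD, n = 4), a ratio of 1.60, with a log2 change of 0.63 (SE 0.06, limma, Benjamini-Hochberg adjusted p = 2.8e-05).

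Adamts5 (ENSRNOG00000057794) encodes the other principal aggrecanase and lies next to Adamts1 in the RefSeq gene order. The Lv-Ctrl samples gave 60.0, 61.4, 39.5 and 52.8 TPM and the Lv-Piezo1 samples 41.7, 40.5, 47.8 and 49.2 TPM. The groups overlapped, because Lv-Ctrl replicate 3 was the lowest of all 8 samples. The means were 53.4 ± 9.99 TPM and 44.8 ± 4.35 TPM (SD, n = 4). The log2 difference of -0.23 (SE 0.13, 95% interval -0.54 to 0.07) did not pass limma with Benjamini-Hochberg adjustment (adjusted p = 0.16), and the exact two-sided permutation p was 0.17. It passed without Lv-Ctrl replicate 3 (-0.37, adjusted p = 0.0054 in limma), with median-ratio scaling (-0.39, adjusted p = 0.015 in limma) and with quantile normalization (-0.34, adjusted p = 0.043 in limma).

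Adamts9 (ENSRNOG00000023257), an aggrecanase that also cuts versican, was near the lower end of the measurable range and did not reach a mean of 1 TPM. The Lv-Ctrl samples held 0.34, 0.20, 0.03 and 0.11 TPM and the Lv-Piezo1 samples 0.47, 0.28, 0.35 and 0.51 TPM. The groups overlapped, and the exact two-sided permutation test gave p = 0.057, where the smallest p that 4 samples against 4 can give is 0.029. When all genes above 0 were fitted, its log2 difference was 0.27 (limma, Benjamini-Hochberg adjusted p = 0.044).

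Summed over the 4 aggrecanases, the TPM was 1029 ± 149 in Lv-Ctrl and 715 ± 61.9 in Lv-Piezo1 (SD, n = 4), a ratio of 0.694. The single samples ranged from 814 to 1134 TPM and from 657 to 796 TPM, without overlap. Adamts1 held 93.7% of the Lv-Ctrl sum and 91.1% of the Lv-Piezo1 sum, so the summed value follows that gene. Without Adamts1 the other three aggrecanases summed to 65.0 ± 10.6 TPM and 63.3 ± 5.27 TPM (SD, n = 4), a difference of -1.67 TPM. It was -6.56 TPM without Lv-Ctrl replicate 3 and -8.68 TPM with median-ratio scaling, where the means were 68.3 ± 8.98 TPM and 59.6 ± 3.99 TPM (SD, n = 4), and it was above 0, at 0.97 TPM, without Lv-Ctrl replicate 1. Within that remainder the mix differed, since Adamts5 was 4.69 ± 0.750 times Adamts4 in Lv-Ctrl and 2.47 ± 0.144 times in Lv-Piezo1 (SD, n = 4). These sums and ratios describe the samples and were not tested.

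Of the procollagen processors, Adamts14 (ENSRNOG00000000563) rose. It measured 2.45, 3.07, 2.23 and 2.51 TPM in Lv-Ctrl and 4.59, 4.57, 4.15 and 4.80 TPM in Lv-Piezo1, with no overlap. The mean went from 2.57 ± 0.358 TPM to 4.53 ± 0.272 TPM (SD, n = 4), a ratio of 1.77 and a log2 change of 0.64 (SE 0.09, limma, Benjamini-Hochberg adjusted p = 2.8e-04).

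Adamts2 (ENSRNOG00000061484), the more abundant of the pair, held 29.1, 27.3, 25.9 and 27.0 TPM in Lv-Ctrl and 29.7, 28.4, 29.0 and 28.8 TPM in Lv-Piezo1. Replicate 1 of Lv-Ctrl lay within the range of the other group, so the groups overlapped. The means of 27.3 ± 1.33 TPM and 29.0 ± 0.548 TPM (SD, n = 4) gave a log2 difference of 0.08 (SE 0.04, 95% interval -0.01 to 0.18, limma, Benjamini-Hochberg adjusted p = 0.12). Without Lv-Ctrl replicate 1 the difference was 0.11 (limma, adjusted p = 0.046), while median-ratio scaling turned it to -0.07 and quantile normalization to -0.05. The pair summed to 29.9 ± 1.45 TPM in Lv-Ctrl and 33.5 ± 0.594 TPM in Lv-Piezo1 (SD, n = 4), a ratio of 1.12, and most of both sums was Adamts2. The difference of 3.64 TPM became 0.087 TPM with median-ratio scaling.

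Among the other members, Adamts10 (ENSRNOG00000008857) had the largest change of the 9 members tested. This protease is known for its part in the assembly of fibrillin microfibrils. Its TPM was 35.5, 35.5, 29.0 and 33.5 in Lv-Ctrl and 71.1, 68.7, 72.2 and 72.2 in Lv-Piezo1. The samples of each group stood close together, with a wide gap between the groups. The mean rose from 33.4 ± 3.05 TPM to 71.1 ± 1.68 TPM (SD, n = 4), a ratio of 2.13 and a log2 change of 1.07 (SE 0.06, 95% interval 0.93 to 1.22, limma, Benjamini-Hochberg adjusted p = 1.0e-06). The interval reaches below a 2-fold change, and the value was 0.91 with median-ratio scaling and 0.96 with quantile normalization, both short of it (limma, adjusted p = 4.0e-07 and 8.2e-07).

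Adamts7 (ENSRNOG00000028036), a protease that cuts cartilage oligomeric matrix protein, had the largest fall among the members tested. The Lv-Ctrl samples held 58.8, 58.1, 50.1 and 54.0 TPM. The Lv-Piezo1 samples held 32.4, 31.3, 33.0 and 33.9 TPM, all well below the other group. The mean fell from 55.3 ± 4.03 TPM to 32.6 ± 1.10 TPM (SD, n = 4), a ratio of 0.590 and a log2 change of -0.74 (SE 0.06, limma, Benjamini-Hochberg adjusted p = 4.7e-06). With median-ratio scaling the fall was larger, at -0.90.

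Adamts12 (ENSRNOG00000018865), which shares that substrate with Adamts7, did not pass the test. It measured 5.88, 7.25, 5.94 and 7.35 TPM in Lv-Ctrl and 6.89, 7.25, 7.58 and 8.95 TPM in Lv-Piezo1, and replicate 2 of both groups had the same value. The log2 difference was 0.19 (SE 0.10, 95% interval -0.03 to 0.41, limma, Benjamini-Hochberg adjusted p = 0.13), 0.05 with median-ratio scaling and -0.01 with quantile normalization. Adamts6 (ENSRNOG00000012655), the close relative of Adamts10, rose. It held 4.50, 5.21, 4.28 and 4.87 TPM in Lv-Ctrl and 7.18, 7.26, 8.14 and 8.23 TPM in Lv-Piezo1, without overlap. The log2 change was 0.61 (SE 0.08, limma, Benjamini-Hochberg adjusted p = 1.3e-04).

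**Figure D2:**
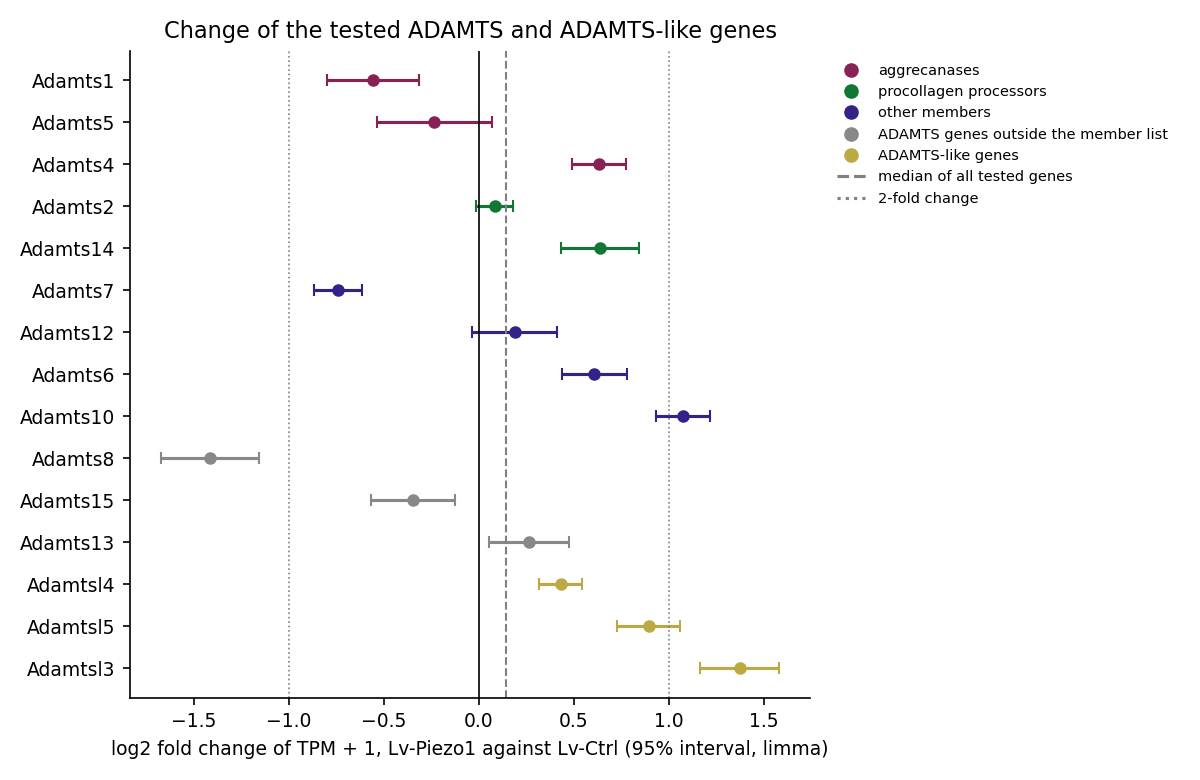
Log2 change of TPM + 1 (horizontal axis) of the 9 tested members, 3 further Adamts genes and 3 ADAMTS-like genes, Lv-Piezo1 against Lv-Ctrl. Points are limma estimates over 4 samples per group, bars 95% intervals, the dashed line the median of all tested genes at 0.14 and the dotted lines a 2-fold change. The intervals of Adamts5, Adamts2 and Adamts12 include 0, and Adamts8 lies farthest to the left at -1.41.

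Every member with a called direction kept it when each sample was left out in turn, with the log2 change of Adamts10 between 1.01 and 1.10, that of Adamts7 between -0.79 and -0.71 and that of Adamts1 between -0.67 and -0.51. For the 6 members that passed, the exact two-sided permutation p was 0.029, the smallest this design allows. The order of the levels changed between the groups. In Lv-Ctrl Adamts1 was followed by Adamts7 and Adamts5, whose ranges overlapped, then by Adamts10 and Adamts2, whose ranges also overlapped, and then by Adamts4, Adamts12, Adamts6, Adamts14 and Adamts9 with no overlap between neighbours. In Lv-Piezo1 Adamts10 stood second, ahead of Adamts5, Adamts7, Adamts2 and Adamts4, and Adamts6 and Adamts12 overlapped. The ratio of Adamts10 to Adamts7 describes this exchange within each library. It does not depend on a single factor per sample, as in median-ratio scaling, but quantile normalization can change it. The ratio was 0.603 ± 0.0178 in Lv-Ctrl and 2.18 ± 0.0313 in Lv-Piezo1 (SD, n = 4). These genes had the largest rise and the largest fall of the members tested, so the separation follows from that choice and was not tested. All 10 members together summed to 1159 ± 158 TPM and 867 ± 65.7 TPM (SD, n = 4), of which Adamts1 held 83.1% and 75.1%.

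**Figure D3:**
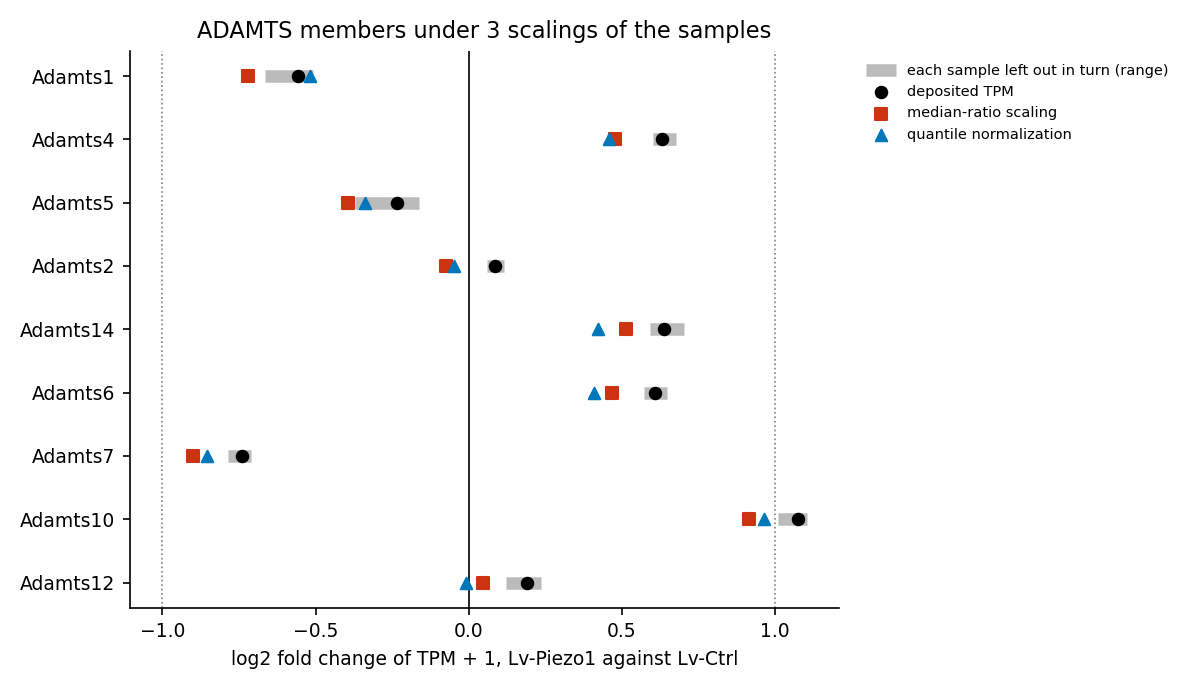
Log2 change of TPM + 1 of the 9 tested members with the deposited TPM (circles), median-ratio scaling (squares) and quantile normalization (triangles), with the range over leaving out each sample in turn as grey bars. Dotted lines mark a 2-fold change. Adamts10 passes 1 with the deposited TPM at 1.07 and falls short of it at 0.91 and 0.96, and Adamts2 changes sign from 0.08 to -0.07 and -0.05.

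Lv-Ctrl replicate 3 was the lowest of its group for 8 of the 9 tested members, and it was also the lowest for 48.8% of all tested genes. Lv-Piezo1 replicate 4 was the highest of its group for 7 of the 9 members and for 42.7% of all tested genes.

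The sequences just upstream of 3 members are shown because these genes had the largest rise, the largest fall and the highest level. They were taken from RefSeq, assembly GRCr8, as the 250 bases before the annotated start, read on the strand of the gene. Capitals mark matches to a GC box on either strand.
Adamts1, chr11:38427385-38427634, minus strand: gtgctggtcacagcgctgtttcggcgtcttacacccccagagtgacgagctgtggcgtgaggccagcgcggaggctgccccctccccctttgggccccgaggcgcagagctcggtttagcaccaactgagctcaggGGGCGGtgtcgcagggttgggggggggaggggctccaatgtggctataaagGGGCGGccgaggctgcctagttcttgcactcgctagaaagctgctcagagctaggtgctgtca
Adamts7, chr8:99584279-99584528, plus strand: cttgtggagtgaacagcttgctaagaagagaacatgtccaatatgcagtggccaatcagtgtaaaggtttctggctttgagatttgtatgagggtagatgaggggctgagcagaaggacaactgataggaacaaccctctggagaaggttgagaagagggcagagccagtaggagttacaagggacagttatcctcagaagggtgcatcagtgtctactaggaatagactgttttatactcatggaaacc
Adamts10, chr7:15033685-15033934, plus strand: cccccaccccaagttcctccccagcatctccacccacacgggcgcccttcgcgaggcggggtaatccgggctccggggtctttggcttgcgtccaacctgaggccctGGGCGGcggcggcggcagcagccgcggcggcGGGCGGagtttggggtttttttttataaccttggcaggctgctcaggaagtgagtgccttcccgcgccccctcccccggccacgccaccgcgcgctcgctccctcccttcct

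The Adamts10 sequence holds 70.4% G and C and 25 CpG dinucleotides, with GC boxes that begin 143 and 112 bases before the start. The Adamts1 sequence holds 65.2% G and C and 15 CpG, with GC boxes 114 and 63 bases before the start. The Adamts7 sequence holds 46.0% G and C, no CpG and no GC box, against a median of 51.2% and 5 CpG over 33469 rat promoters. Of the 9 members with a sequence (all but Adamts5), a GC box was present in Adamts1, Adamts9, Adamts2, Adamts14 and Adamts10, which include genes that rose, fell and did not pass. The motifs searched on both strands, none contained in another, were the GC box GGGCGG (in 30.5% of the 33469 promoters), AP-1 TGANTCA (6.34%), RUNX TGTGGT (14.5%), TEAD GGAATG (12.1%), the cAMP response element TGACGTCA (1.59%) and NF-kB GGGANTTCC (1.43%). All but the GC box were found in none of the 9 sequences, which says only that these letters are not in this window.

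Of the 9 other Adamts genes in the table, 3 reached a mean of 1 TPM. Adamts8, a relative that also cuts proteoglycans, held 3.25, 3.12, 2.50 and 3.07 TPM in Lv-Ctrl and 0.41, 0.67, 0.43 and 0.47 TPM in Lv-Piezo1. Its log2 change of -1.41 (SE 0.11, limma, Benjamini-Hochberg adjusted p = 7.4e-06) was larger in size than that of any tested member. Adamts8 reached a mean of 1 TPM only through Lv-Ctrl, since its Lv-Piezo1 mean was 0.495 TPM. Adamts15, another proteoglycan-cutting relative and its neighbour in the RefSeq gene order, also fell, from 3.90 ± 0.418 TPM to 2.86 ± 0.356 TPM (SD, n = 4; log2 change -0.35, SE 0.10, limma, adjusted p = 0.013). Adamts13, which cuts von Willebrand factor, rose from 24.0 ± 3.54 TPM to 28.8 ± 1.18 TPM (SD, n = 4; 0.26, SE 0.09, limma, adjusted p = 0.037). With median-ratio scaling the difference of Adamts13 was 0.11 and no longer passed (limma, adjusted p = 0.28). Adamts3, the remaining procollagen processor, stayed at 0.225 and 0.278 TPM, Adamts16, Adamts17, Adamts19 and Adamts20 had means of at most 0.04 TPM, and Adamts18 was listed at 0.

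ADAMTS-like proteins share the ancillary domains of the family but lack the protease domain. Of 7 listed, 3 were tested and all of these rose, with a median log2 change of 0.89 against 0.14 for all tested genes. Of all tested genes 41.9% rose. Thsd4 was listed but not found by symbol. Adamtsl3 went from 4.11 to 12.2 TPM (log2 change 1.37, SE 0.09, limma, Benjamini-Hochberg adjusted p = 2.3e-06), Adamtsl5 from 24.9 to 46.9 TPM and Adamtsl4, which binds fibrillin, from 105 to 142 TPM.

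Genes that hold the proteases in check or activate them were next compared. Of all tested genes 41.9% rose and 16.3% fell, and with median-ratio scaling 27.9% rose and 27.9% fell. Timp3, the main inhibitor of aggrecanases, measured 7.98, 7.97, 5.72 and 6.78 TPM in Lv-Ctrl and 13.1, 12.9, 14.1 and 14.6 TPM in Lv-Piezo1, so the groups did not overlap. Its log2 change was 0.86 (SE 0.10, limma, Benjamini-Hochberg adjusted p = 6.6e-05). As a description, Adamts1 was 136 ± 5.98 times Timp3 in Lv-Ctrl and 47.6 ± 1.64 times in Lv-Piezo1 (SD, n = 4). Timp1, a broad metalloproteinase inhibitor, also rose, from 402 to 509 TPM, and both tested TIMP genes were thus higher (median 0.60), although with median-ratio scaling Timp1 gave 0.18 and missed the test (limma, adjusted p = 0.056). With quantile normalization both tested TIMP genes rose. Timp4 did not reach a mean of 1 TPM, and Timp2 was not found by symbol. Of the 4 proprotein convertases, 3 rose (median 0.75). Pcsk6 went from 3.82 to 12.0 TPM (1.43, SE 0.07, limma, adjusted p = 2.6e-07), Pcsk5 from 1.47 to 3.69 TPM and Pcsk7 from 11.6 to 17.6 TPM. Furin, the convertase best known to process ADAMTS precursors, was the most abundant and gave 71.3 and 69.9 TPM (log2 difference -0.03, limma, adjusted p = 0.68), but it fell with median-ratio scaling (-0.19, limma, adjusted p = 0.0015). With quantile normalization its difference was -0.12 and did not pass. Of 5 uptake receptors and cell surface anchors, Sdc1 rose and Sdc4, a syndecan that binds aggrecanases, fell (-0.32), with a list median of -0.06. Lrp1, the endocytic receptor of the aggrecanases, gave 267 and 254 TPM and did not pass (limma, adjusted p = 0.63). With median-ratio scaling Lrp1 also fell (-0.22, limma, adjusted p = 0.038), as did Sdc2 and Cd44, so that 1 of the 5 rose and 4 fell. With quantile normalization 1 rose and 1 fell, the same counts as with the deposited TPM.

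The substrates also moved in both directions, as did all tested genes, of which 41.9% rose and 16.3% fell. Acan, the core protein of aggrecan, measured 33.8, 33.3, 27.3 and 31.8 TPM in Lv-Ctrl and 45.5, 45.6, 48.6 and 48.9 TPM in Lv-Piezo1, without overlap (log2 change 0.57, SE 0.07, limma, Benjamini-Hochberg adjusted p = 8.7e-05). Vcan, the core protein of versican, fell from 15.2 to 11.4 TPM (-0.39, limma, adjusted p = 8.4e-04). Of 8 hyalectans and link proteins, 5 were tested, of which 3 rose and 2 fell (median 0.25), and the link protein gene Hapln4 had the largest rise, from 2.68 to 12.5 TPM (1.88). Of the 3 that rose, Hapln3 did not pass with median-ratio scaling (0.09, limma, adjusted p = 0.21). With quantile normalization the list again had 3 that rose and 2 that fell. Of 9 fibrillar procollagen genes, 7 were tested and 6 rose (median 0.59). Col1a1, a chain of type I collagen, went from 3282 ± 137 TPM to 5835 ± 103 TPM (SD, n = 4; 0.83, limma, adjusted p = 1.3e-07), Col1a2, its partner chain, from 2316 to 3795 TPM (0.71), Col3a1 of type III collagen from 188 to 262 TPM (0.48) and Col5a2 of type V collagen from 745 to 1521 TPM (1.03).

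Of 3 tested enzymes and helpers of procollagen processing outside the family, 1 rose and 2 fell (median -0.25). The shares of all tested genes were 41.9% and 16.3%, here and for the 2 lists that follow. Tll1, a tolloid protease that removes the carboxy-terminal propeptide, fell from 19.8 to 8.32 TPM (-1.16, limma, Benjamini-Hochberg adjusted p = 9.6e-06). The 1 that rose was Bmp1, from 35.0 to 46.5 TPM (0.40, limma, adjusted p = 1.3e-05). Of 6 tested glycoprotein and small proteoglycan substrates, 3 rose and 2 fell (median 0.08), and with median-ratio scaling 3 rose and 3 fell (median -0.08). With quantile normalization 3 rose and 2 fell (median 0.13). Comp, cartilage oligomeric matrix protein, rose from 0.738 to 2.86 TPM (1.16) and Fn1, fibronectin, from 1940 to 4908 TPM (1.35). Comp reached a mean of 1 TPM only through Lv-Piezo1, since its Lv-Ctrl mean was 0.738 TPM. The 2 of this list that fell with the deposited TPM were Thbs2 (-0.56, limma, adjusted p = 1.6e-04) and Fmod (-0.99). The Thbs2 mean went from 7864.5 TPM in Lv-Ctrl to 5302.8 TPM in Lv-Piezo1. Of 5 tested microfibril partners, 1 rose and 1 fell (median -0.01), and with median-ratio scaling 1 rose and 3 fell, with Ltbp3 and Ltbp4 added. With quantile normalization 1 rose and 2 fell. Ltbp2, a latent TGF-beta binding protein of microfibrils, rose from 233 to 600 TPM (1.36), and Fbn1, fibrillin-1, gave 15.6 and 18.6 TPM and did not pass (0.25, limma, adjusted p = 0.058). The 1 that fell with the deposited TPM was Ltbp1, from 194 to 129 TPM (-0.58).

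**Figure D4:**
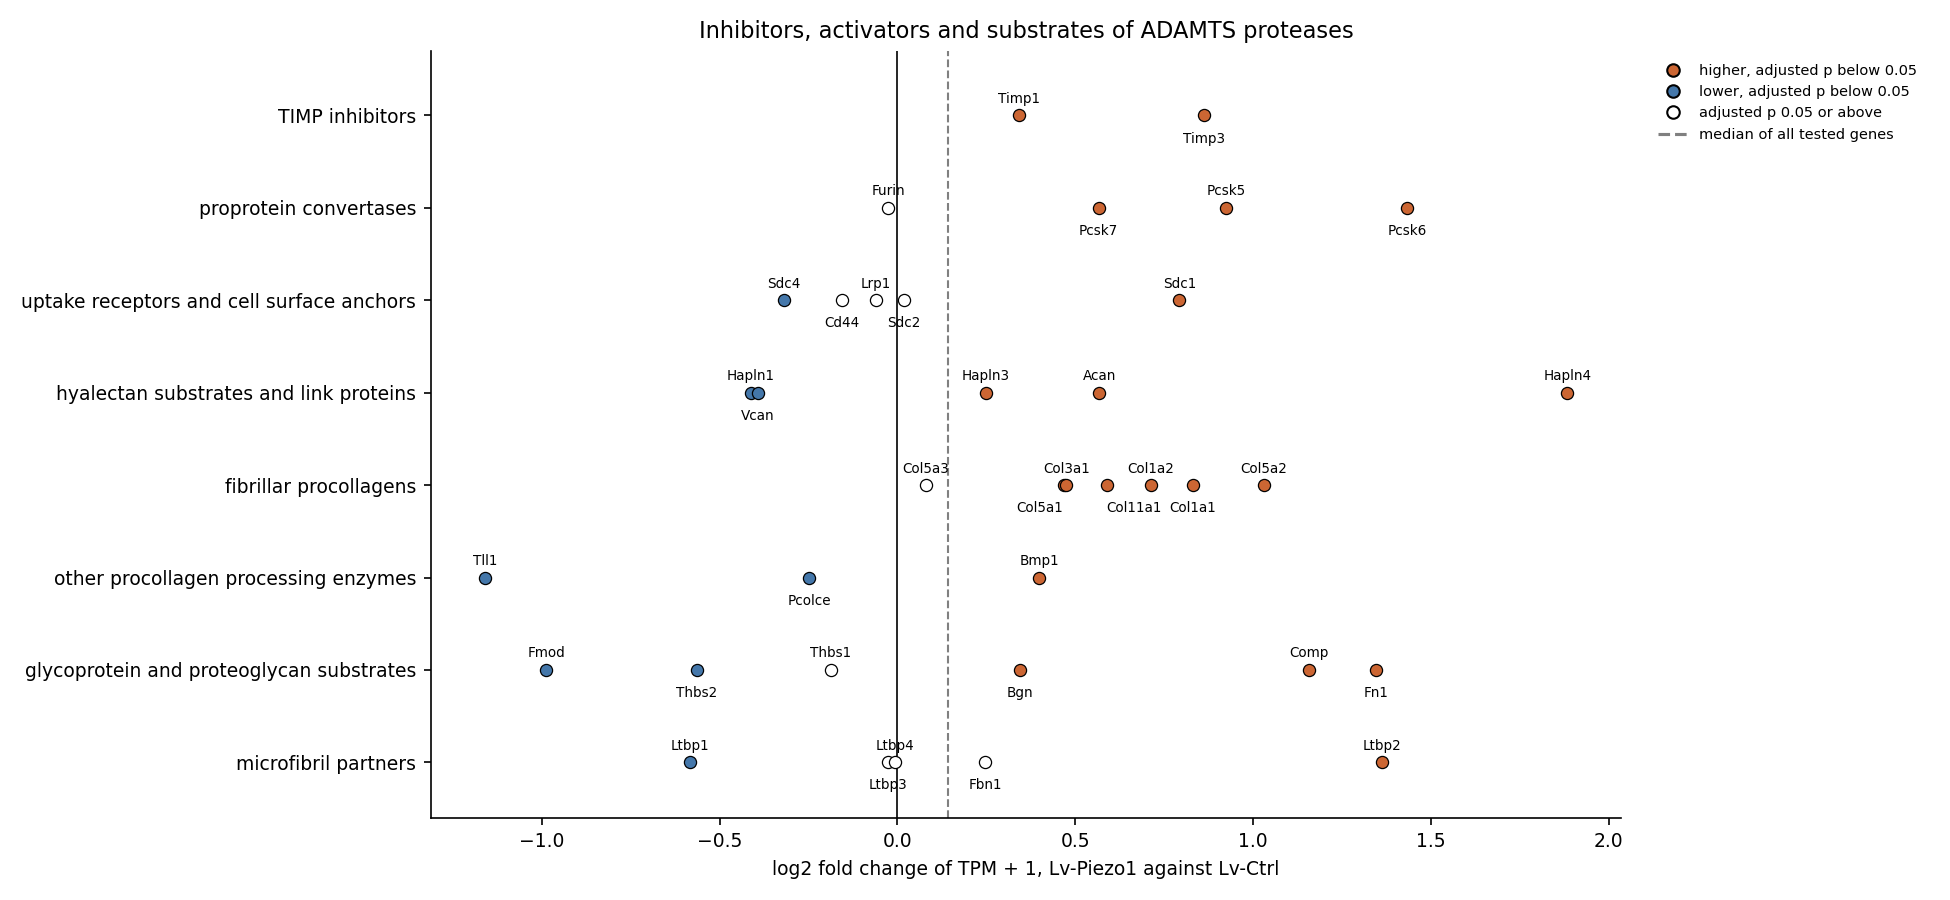
Log2 change of TPM + 1 (horizontal axis), Lv-Piezo1 against Lv-Ctrl, of the tested inhibitors, activators, receptors and substrates of ADAMTS proteases, one row per list. Filled points passed limma at an adjusted p below 0.05 (orange higher, blue lower), open points did not, and the dashed line is the median of all tested genes at 0.14. Fibrillar procollagens lie mostly to the right of the median, while the uptake receptors spread around 0.

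The 3 genes most like Adamts10, by the Pearson correlation of log2(TPM + 1) over the 8 samples, were Myh9, a non-muscle myosin, Tnn, tenascin-N, and Flna, the actin crosslinker filamin A, each with r = 0.999. The 8 samples form 2 groups that differ in all of these genes, so the correlation mainly describes that shared difference.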

How the data were processed

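RNA-seq was performed on AFCs under CMS, with 4 samples of each label. The deposited table holds TPM computed by the authors, with 2 decimals. The study's methods name HISAT2, StringTie, the rat genome, FPKM and DESeq, whereas the submitters' processing notes list mm10 and DESeq2. The rows carry rat Ensembl identifiers, and the annotation release and strand setting are not given in the sources used here. TPM keeps no depth, so the depth is unknown and precision rests on the 4 samples of a group. By the study's methods each repeat was a separate isolation whose cells received the different treatments, but the labels do not say that the replicate numbers mark isolations. No pair of samples held identical values.

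The 2 groups were compared on log2(TPM + 1) by limma 3.58.1 (R 4.3.3), with a variance trend and Benjamini-Hochberg adjustment over all genes whose mean reached 1 TPM. The 2-fold condition follows the study's methods. Single members were also compared by an exact permutation test over 70 relabelings. The fit was tested on simulated data. Group means deposited by the authors were not used.

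The members, lists and tests were chosen with earlier results of these data known, and lists were written from general knowledge. Listed genes not found by symbol were Timp2, Thsd4, Pcolce2 and the nucleus pulposus markers Krt19, Car12 and Car3. Outside the family, up to 3 genes with the largest rise and fall past both conditions were named per list, with Timp3, Acan, Vcan, Col1a1, Col1a2 and Col3a1 always. Adamtsl4, Adamtsl5, Timp1, Timp4, Hapln3, Pcsk5, Pcsk7, Furin, Sdc1, Sdc2, Sdc4, Cd44, Lrp1, Bmp1, Fmod, Thbs2, Fbn1, Ltbp1, Ltbp3, Ltbp4 and the marker genes were named after their values were seen. Alternatives were a pseudocount of 0.1, other filters on TPM, quantile normalization, median-ratio scaling, removal of mitochondrially encoded genes, no trend, a replicate block, no fold threshold and leaving out each sample. The alternatives for the aggrecanases without Adamts1 and for the counts per list were added after seeing the data. Promoter sequences came from RefSeq, assembly GRCr8.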

Additional observations from a re-analysis of the deposited data

Results flagged for a closer look

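In groups of 4 samples, the gap between the farthest sample and its nearest neighbour was compared with the range of the group by Dixon's criterion. Of 38 groups examined, 2 passed it, and chance alone passes about 5% of groups. Adamts13 reached 30.5 TPM in Lv-Piezo1 replicate 1, while the other three samples lay between 28.0 and 28.3 TPM. Adamts15 reached 4.52 TPM in Lv-Ctrl replicate 2, while the other three lay between 3.66 and 3.73 TPM. None of the 10 members passed it in either group.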

How the results depend on the processing

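The 6 members that passed the test kept their direction and stayed past it under the alternatives run, except that Adamts14 was not tested at a mean TPM of at least 5. Adamts2 turned from 0.08 to -0.073 with median-ratio scaling, where its exact permutation p was 0.057, and to -0.048 with quantile normalization, and Adamts12 turned from 0.19 to -0.010 with quantile normalization. The limma count of members past the 2-fold condition went from 1 to 0 with median-ratio scaling and 0 with quantile normalization, where 7 members had an unadjusted p below 0.05 in each, and to 6 with no fold threshold. Over all tested genes the count of 1005 became 628 at a mean TPM of at least 5, since fewer genes were tested, 977 with median-ratio scaling, 948 with quantile normalization, 1438 with a pseudocount of 0.1 and 7626 with no fold threshold. The summed procollagen processors differed by 0.087 TPM with median-ratio scaling against 3.64 TPM. The aggrecanases without Adamts1 differed by -6.56 to 0.97 TPM when each sample was left out. The replicate numbers were not taken to pair the samples, since deviations of same-numbered samples correlated at -0.06 to -0.01 over genes. The replicate block gave 1004 genes past both conditions and 1 member, and changed no member's call. Of all values recomputed under alternatives, 223 were labelled the same, 6 moved, 5 passed a threshold they had missed and 7 reversed. For single members, the same means an unchanged sign and an unchanged side of the threshold. Counts were allowed a limited relative change, so that 1438 genes against 1005 were labelled the same. Sums were allowed a change smaller than the pooled SD of the groups. With no depth in the files, counting error could not be given, which weighs most on Adamts9 and the genes below 1 TPM.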
